A study of Homo sapiens with 4 samples.

Results

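RAD21 peaks that lie between convergent genes were examined, that is, peaks in the sequence where the gene on the left is read toward the right and the gene on the right is read toward the left, so that both genes end at the gap. A peak was counted when its summit was outside every annotated gene, more than 1 kb from any gene boundary and less than 200 kb from the nearest 5' end of a protein-coding gene, with a plus-strand protein-coding gene on its left and a minus-strand one on its right. On chromosomes 1 to 22, 2338 of 55201 peaks met these conditions, which is 4.24% of them, out of 56853 peaks in the whole list. The rule used the position of the summit and the annotation only, not the strength of the peak. All 2338 are accounted for below, with no further filter on low values.

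The study profiled RAD21 by chromatin immunoprecipitation and sequencing (ChIP-seq) in HCT116 cells, a human colorectal carcinoma line. The peaks come from 1 library, that of wild-type untreated HCT116. The other 3 libraries were not analysed here: RAD21 ChIP of HCT116_RAD21_AID cells without and with auxins, and the Input of the auxin-treated cells. HCT116_RAD21_AID is a derived clone with an mAID degron in the RAD21 gene and with the OsTIR1 ubiquitin ligase, and its auxin treatment was indole-3-acetic acid with alpha-naphthaleneacetic acid, 500 µM each, for 6 h. With 1 library there is no replicate, and the 95% intervals given here cover counting error only.

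RAD21 is the kleisin subunit of cohesin, the ring-shaped complex that holds sister chromatids together and extrudes chromatin loops. CTCF is the DNA-binding protein at which extruding cohesin halts, and CTCF motifs at the anchors of a loop usually face each other. In yeast, cohesin is known to gather where convergent genes end, and transcription is known to move cohesin along genes. The sequences between convergent genes hold 3' ends and no protein-coding promoter of the flanking genes, which sets them apart from divergent gaps, where both flanking genes start, and from tandem gaps, where both are read the same way.

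The sequence around the summit is given first for the strongest peaks, because the share with a CTCF match differed widely between strong and weak peaks. Of the 12 peaks with the highest fold enrichment, 2 had an exact match to the CTCF consensus within 50 bases of the summit and 6 had a match with 1 mismatch. Each line names the flanking genes, the position on GRCh38 and the strand that carries the match. The sequence is written 5' to 3' on that strand, and the capitals mark the 12 bases matched to the consensus. The ID2/KIDINS220 and RAB11FIP4/COPRS matches are the exact ones. Showing the matches with 1 mismatch was decided after their values had been seen.
ID2/KIDINS220, chr2:8685916-8685951, minus strand: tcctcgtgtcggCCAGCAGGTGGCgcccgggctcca
C20orf85/ANKRD60, chr20:58210021-58210056, minus strand: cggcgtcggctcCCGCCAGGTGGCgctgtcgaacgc
HPCAL1/ODC1, chr2:10435103-10435138, minus strand: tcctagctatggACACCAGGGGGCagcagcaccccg
FOXI2/CLRN3, chr10:127854157-127854192, minus strand: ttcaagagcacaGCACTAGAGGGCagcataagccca
CDHR3/SYPL1, chr7:106042964-106042999, minus strand: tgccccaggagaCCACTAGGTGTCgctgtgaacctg
SOX11/CMPK2, chr2:6773311-6773346, minus strand: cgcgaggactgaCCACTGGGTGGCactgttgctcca
LTBP4/NUMBL, chr19:40662912-40662947, plus strand: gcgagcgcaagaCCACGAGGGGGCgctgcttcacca
RAB11FIP4/COPRS, chr17:31842713-31842748, minus strand: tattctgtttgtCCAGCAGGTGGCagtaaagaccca

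The peak list placed 34926 of the autosomal summits (63.3%) inside a gene. Another 3084 (5.59%) were outside genes but less than the 1 kb margin from a gene boundary, 4944 (8.96%) were past the margin but 200 kb or more from a protein-coding 5' end, and 101 had no protein-coding gene on 1 side. This left 12146 intergenic peaks (22%), of which 6453 were in tandem gaps, 3355 in divergent gaps and 2338 in convergent gaps. Peaks in convergent gaps that the margin left out were not weak ones. The 410 peaks between convergent genes that were closer than 1 kb to a gene boundary had a median fold enrichment of 7.54. The 143 counted peaks at 1 to 2 kb from the nearer flanking protein-coding gene had 6.23. The margin counts every annotated gene, so these are not adjacent steps of the same distance. At the outer limit, the 258 peaks at 150 to 200 kb from a protein-coding 5' end had a median fold of 5.99, and the 205 just beyond, at 200 to 250 kb, had 6.52.

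RAD21 peaks were denser between convergent genes than between divergent or tandem genes. The sequence in which a summit could have been counted, called eligible sequence here, came to 90.4 Mb in convergent gaps and held 25.9 peaks per Mb (95% exact Poisson interval 24.8 to 26.9). Tandem gaps held 22.3 per Mb (21.8 to 22.9) in 289 Mb of eligible sequence. Divergent gaps held 20.8 per Mb (20.1 to 21.5) in 161 Mb. The density between convergent genes was thus 1.24 times that between divergent genes (exact interval 1.18 to 1.31) and 1.16 times that between tandem genes (1.11 to 1.22). Convergent gaps made up 16.7% of all eligible sequence and held 19.2% of the eligible peaks (Wilson interval 18.6 to 19.96). The ratio to divergent gaps was 1.10 when the 1 kb margin was kept from 3' ends only, so that divergent gaps regained the sequence next to their promoters. The ratio also depended on the 200 kb limit, being 1.34 with a limit of 100 kb and 1.12 with none. That limit runs from 5' ends. Those of the flanking genes lie at the edge of divergent gaps, but at the far side of the genes beside convergent gaps.

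The higher density was found at short and middle distances from the flanking genes. The density in convergent gaps was 37.7 per Mb at 1 to 2 kb from the nearer gene (31.8 to 44.5), close to the 37.3 of tandem gaps and with an interval that overlapped the 33.7 of divergent gaps. At 2 to 5 kb it was 39.3 per Mb (35.3 to 43.6), beside 31.9 (29.7 to 34.1) in tandem and 31.5 (28.2 to 35.0) in divergent gaps. The difference was as clear at 5 to 10 kb, with 33.7 per Mb (30.3 to 37.3) against 27.9 and 25.3. At 10 to 20 kb it was 30.9 (28.2 to 33.9) against 25.4 and 24.0. From 20 to 50 kb the values drew together, at 22.8, 21.7 and 21.2 per Mb. At 50 to 100 kb they were 17.8, 17.3 and 18.2, and beyond 100 kb 16.2, 14.6 and 12.8. Between 2 and 20 kb the convergent interval thus lay above both others, while between 20 and 100 kb the 3 kinds of gap could not be told apart at this number of peaks.

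Short gaps have only sequence near genes, so the distances were also compared within gaps of like length, 40 to 200 kb, a range chosen after the values had been seen. There the density between convergent genes was 33.3 per Mb at 2 to 5 kb (26.8 to 40.8), 31.5 at 5 to 10 kb (26.4 to 37.1) and 31.6 at 10 to 20 kb (28.0 to 35.6). Divergent gaps of these lengths held 26.9 (22.4 to 32.0), 23.6 (20.3 to 27.2) and 24.7 (22.3 to 27.2) per Mb at the same distances, and tandem gaps 29.3 (25.7 to 33.2), 26.0 (23.3 to 28.8) and 26.3 (24.4 to 28.3). The convergent density was the highest of the 3 at each of these distances, but in gaps of like length its interval overlapped both others at 2 to 5 and at 5 to 10 kb. At 10 to 20 kb it lay above the divergent interval and overlapped the tandem one by a little. At 1 to 2 kb the order was turned, with 33.4 per Mb in convergent gaps and 36.1 in divergent ones, but the intervals, 22.7 to 47.4 and 27.1 to 47.1, overlapped almost fully.

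Among the 22 autosomes the density between convergent genes ran from 18.6 per Mb on chromosome 4 to 40.5 on chromosome 19, the chromosome richest in genes. It was above that between divergent genes on 20 chromosomes and above that between tandem genes on 18. The exceptions to the former were chromosome 11, with 18.7 against 20.2 per Mb, and chromosome 16, with 27.5 against 30.3. The widest gap was on chromosome 21, where 44 peaks between convergent genes gave 34.0 per Mb and 34 peaks between divergent genes gave 19.2. Chromosome 1 held the most of these peaks, 274, at 31.2 per Mb beside 21.9 for its divergent gaps. This split by chromosome was added after the pooled values had been seen.

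The fold enrichment of the peaks between convergent genes was close to that in other gaps and above that of RAD21 peaks in general. Their median fold enrichment over the local background was 7.00 (order-statistic interval 6.67 to 7.38), with quartiles of 3.96 and 14.2 and a range from 1.77 to 90.6. The median was 7.00 in tandem gaps, 7.34 in divergent gaps and 5.60 over all autosomal peaks. A fold of at least 10 was reached by 863 of the 2338 peaks, 36.9% (Wilson interval 35.0 to 38.9). The background share, that of all autosomal peaks with a fold of at least 10, was 27.4%, and the shares in tandem and divergent gaps were 35.8% and 37.2%. The excess over all peaks was therefore shared by intergenic peaks of every gene order, convergent or not.

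Behind a typical fold stood few fragments. The median peak had 60 ChIP fragments at its summit, with a range of 15 to 769, on a median background of 6.73 fragments. The background was at its floor of 5.90 fragments, the genome-wide mean, at 770 peaks. The highest background was 37.9 fragments, and none of the 2338 reached 10 times the floor, whereas 462 of all autosomal peaks (0.837%) did. The shares in tandem and divergent gaps were 0.48% and 0.238%. Peaks between convergent genes were 476.5 bp wide at the median, and 48 of them (2.05%) were 1200 bp or wider. Over all autosomal peaks the median width was 448 bp and the share of such wide peaks 2.43%. Tandem gaps had 467 bp and 1.92%, and divergent gaps 466 bp and 1.31%. The median GC content of the 201 bases around the summit was 52.7%, beside 53.7% for all autosomal peaks.

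The strength varied with the distance to the nearer 3' end. The median distance was 16192 bp and the quartiles 6078 and 42864.5 bp. In tandem and divergent gaps the median distance to the nearer gene was 19857 and 24697 bp. Neither the distances nor the share within 10 kb takes into account where the eligible sequence lies, as the densities above do. Of the 2338 summits, 851 (36.4%, Wilson interval 34.5 to 38.4) were within 10 kb. By side, 1188 were nearer to the left gene and 1150 to the right one. The median fold was 6.23 (5.36 to 9.45) at 1 to 2 kb, 8.41 (7.25 to 10.5) at 2 to 5 kb, 7.74 (6.86 to 8.84) at 5 to 10 kb and 7.58 (6.75 to 8.52) at 10 to 20 kb. It was lower farther out, at 6.81 (5.94 to 7.54) from 20 to 50 kb, 6.34 (5.50 to 7.17) from 50 to 100 kb and 5.22 (4.92 to 6.09) beyond 100 kb. The share of peaks with a fold of at least 10 went from 45.3% at 2 to 5 kb to 26.2% beyond 100 kb. The interval at 2 to 5 kb overlapped those of the other bins within 20 kb, while the median fold beyond 100 kb lay below the intervals of the bins between 2 and 20 kb. Tandem and divergent gaps had low values there too, with medians of 5.40 and 5.93 beyond 100 kb.

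The share with the CTCF consensus rose with the strength of the peaks, but was like that of other intergenic peaks. An exact match lay within 50 bases of the summit at 311 of the 2338 peaks, 13.3% (Wilson interval 11.99 to 14.7), beside a background share of 11.4% over all autosomal peaks. In tandem and divergent gaps the shares were 13.6% and 13.9%. Control windows 5 kb to either side of the same summits held it in 1 of 4676 cases, or 0.0214%. With up to 1 mismatch allowed, 1016 peaks (43.5%, 41.5 to 45.5) had a match, beside 38.5% of all autosomal peaks and 0.556% of the control windows. The shares in the other gaps, 44.2% and 46.0%, were no lower, so the motif content did not set convergent gaps apart from them.

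The 311 peaks with the exact consensus had a median fold of 13.3 (12.1 to 14.7), the 705 with 1 mismatch 9.98 (9.42 to 10.7) and the 1322 with neither 4.93 (4.64 to 5.17). None of these intervals overlapped. Their median numbers of fragments were 118, 88 and 39, and their median widths 648, 538 and 387.5 bp. In the lowest quartile of fold enrichment, 1.54% of the peaks had the exact consensus and 13.2% a match with up to 1 mismatch. In the 3 higher quartiles the exact share was 9.61%, 17.8% and 24.3%, and the share with up to 1 mismatch 38.1%, 57.8% and 64.8%. The strongest peaks without a match still reached a fold of 81.2, and 23.2% of the peaks without one had a fold of at least 10. That last share was 23.2% in tandem gaps, 26.8% in divergent gaps and 16.7% over all autosomal peaks. The median folds over all autosomal peaks had the same order, at 10.8, 8.28 and 4.14. The order was thus common to RAD21 peaks in general.

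By distance, the exact consensus was at 17.5% of the peaks at 1 to 2 kb, 17.8% (14.1 to 22.1) at 2 to 5 kb and 15.3% at 5 to 10 kb. Farther out it was at 10.96% at 10 to 20 kb, 11.96% at 20 to 50 kb, 10.2% (7.34 to 14.1) at 50 to 100 kb and 12.6% (8.52 to 18.2) beyond 100 kb, and the last interval overlapped those of all nearer bins. With up to 1 mismatch the share at 1 to 2 kb, 43.4%, was no higher than the 43.9% at 10 to 20 kb and the 44.1% at 20 to 50 kb. Divergent gaps had their highest share, 17.1%, at 10 to 20 kb instead.

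The summit tended to lie beside the motif centre, toward the motif's 3' end. For the exact consensus the summit was on the 3' side of the motif centre at 216 of 311 peaks, 69.5% (64.1 to 74.3). Over all 311 peaks its median position was 10.5 bases to the 3' side. Matches with 1 mismatch were counted where the best match was on 1 strand only. The summit was on the 3' side at 506 of these 694 peaks, 72.9% (69.5 to 76.1). Over all 694 the median position was 11.5 bases to the 3' side. Among the exact matches the share was 76.3% at a fold of at least 10 and 55.8% (46.2 to 64.9) below that, where the interval included an even split. All autosomal peaks gave 73.0% for the exact consensus, so the offset was common to RAD21 peaks in general. Of the matches printed above, that of ID2/KIDINS220, on the minus strand, begins 15 bases to the right of the summit, and that of RAB11FIP4/COPRS, on the same strand, 18 bases to the right, so both summits lie outside the printed bases on the motif's 3' side. The side of the summit was examined after other values had been seen.

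The CTCF motifs leaned slightly away from the nearer gene, toward the inside of the gap. Of the 311 exact matches, 164 were on the plus and 147 on the minus strand. Left of the middle of the gap 89 of 147 were on the plus strand (60.5%, 52.5 to 68.1), and right of it 75 of 164 (45.7%, 38.3 to 53.4). Read from 5' to 3', the motif pointed away from the nearer gene at 178 of 311 exact matches, 57.2% (51.7 to 62.6), and at 551 of 1005 matches with up to 1 mismatch, 54.8% (51.7 to 57.9). The corresponding shares were 56.3% and 55.2% in tandem gaps. In divergent gaps they were 50.1% and 50.2%, the latter with an interval of 47.7 to 52.7. The lean was thus small, was seen in convergent and tandem gaps alike, and in convergent gaps overlapped the divergent interval. Its direction against the nearer gene was examined after the strands had been seen.

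The motifs of successive peaks with a CTCF match in a gap showed no clear preference for facing each other. Peaks without a match that lay between them were skipped, so these are not pairs of neighbouring peaks. There were 335 such pairs between convergent genes, matches with up to 1 mismatch included. Of these, 176 had both motifs on the same strand. In 73 the motifs pointed toward each other (21.8%, 17.7 to 26.5), and in 86 they pointed apart (25.7%, 21.3 to 30.6). In divergent gaps 16.8% faced each other (13.8 to 20.2) and 29.7% pointed apart (26.0 to 33.8). The intervals overlapped in both cases.

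Other motifs were not enriched at these summits over their own surroundings by more than counting error. AP-1 sites (TGANTCA), bound by JUN and FOS proteins, lay within 50 bases at 69 peaks, 2.95% (2.34 to 3.72), beside 2.57% of the control windows. RUNX sites (TGTGGTT) were at 2.05% against 1.82%, FOX sites (TGTTTAC) at 1.41% against 1.30% and ETS sites (CCGGAAGT) at 0.128% against 0.107%. Sites of TEAD (ACATTCC), the partner of YAP, were at 0.941% (0.622 to 1.42) against 1.52%. Sites of TCF/LEF (CTTTGAT), the nuclear factors of WNT signalling, were at 0.813% (0.521 to 1.27) against 1.67%. Both strands were searched for each, and the last pair were less frequent at the summits than 5 kb away. Over all autosomal peaks TEAD sites were at 1.24% against 1.61% and TCF/LEF sites at 0.877% against 1.41%. The lower frequency was thus not particular to convergent gaps. The shares over all autosomal peaks were 2.46% for AP-1, 1.90% for RUNX, 0.973% for FOX and 0.201% for ETS. The share with an AP-1 site was 4.79% in the lowest quartile of fold and 1.88% in the highest, with intervals of 3.33 to 6.83 and 1.05 to 3.34 that just met. A match to letters says nothing about binding by a factor.

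Peaks with an AP-1 site had a median fold of 5.22, beside 7.07 for those without. The 3 strongest with the site and without a CTCF match are shown, with its 7 bases in capitals and 12 on either side. They lay between TAF4B, a TFIID subunit, and KCTD1 (fold 35.1, 241 fragments), between the homeobox genes SIX3 and SIX2 (fold 19.3, 136 fragments), and between SPATA18 and the deubiquitinase gene USP46 (fold 16.6, 118 fragments).
TAF4B/KCTD1, chr18:26405592-26405622, plus strand: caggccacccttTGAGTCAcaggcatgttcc
SIX3/SIX2, chr2:44974215-44974245, plus strand: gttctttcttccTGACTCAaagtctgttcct
SPATA18/USP46, chr4:52234650-52234680, plus strand: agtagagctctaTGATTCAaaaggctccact

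The strongest of all 2338 peaks lay between ID2, an inhibitor of basic helix-loop-helix factors, and KIDINS220, a scaffold protein of neurotrophin receptors. Its summit at position 8685913 of chromosome 2 was 1452 bp past the end of ID2 and had a fold of 90.6, from 711 fragments on a background of 6.86. Next came the peak between ENSG00000273259 and GSC, the goosecoid homeobox gene, with a fold of 81.2 from 559 fragments and no CTCF match. The peak between SMAD4, the shared mediator of TGF-beta and BMP signalling, and MEX3C, an RNA-binding ubiquitin ligase, had a fold of 78.1 from 595 fragments and no match either. Each of these 3 was stronger than at least 99.9% of all autosomal peaks.

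The largest number of fragments, 769, was at the peak between C20orf85 and ANKRD60, where a background of 9.47 gave a fold of 73.5. The peak between HPCAL1, a neuronal calcium sensor, and ODC1, the rate-limiting enzyme of polyamine synthesis, lay in a gap of 12350 bp and had a fold of 72.5. Of the same strength was the peak between BAHCC1 and ACTG1, the gene of cytoplasmic gamma-actin, with a fold of 70.8 and no CTCF match. The peak between FOXI2, a forkhead factor, and CLRN3 had a fold of 70.7. The remaining 5 of the 12 ran from 69.1 down to 67.5: those at CDHR3/SYPL1, at SOX11/CMPK2, at LTBP4/NUMBL, at RAB11FIP4/COPRS and at SMIM41/KRT80. Their distances to the nearer gene ranged widely, from 2981 bp at LTBP4/NUMBL to 67263 bp at SOX11/CMPK2. Of the 12, those at GSC, SMAD4, ACTG1 and KRT80 had neither kind of CTCF match. The best fit to the 12 letters of the consensus had 2 mismatches at each of these, so they were just past the limit of 1 mismatch. The GC content over 201 bases was 73.1%, 71.1%, 77.1% and 66.7% at these 4 summits, and from 57.2% to 78.6% at the 8 with a match, the highest being ID2/KIDINS220.

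At the other end, the weakest peak had a fold of 1.77 and lay between C8orf90 and TSNARE1, where 36 fragments stood on a background of 19.9. The peak between PIGG and TMEM271 had a fold of 1.83 from 39 fragments on 20.8, and that between GOLGA8F and GOLGA8G a fold of 1.91 from 57 fragments on 29.4. All 3 had backgrounds above 3 times the floor. In the whole set, 5 peaks (0.214%) had a fold below 2, beside 751 (1.36%) of all autosomal peaks.

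The counted peaks were spread over many gaps. A gap without a counted peak may still hold RAD21 peaks outside its eligible sequence. Of 3242 convergent gaps, 2397 had eligible sequence, and 1086 of these (45.3%, 43.3 to 47.3) held at least 1 peak. The share was 46.3% (45.04 to 47.5) of tandem gaps and 56.2% (54.3 to 58.1) of divergent gaps, which were also longer, with median lengths of 26187 and 46040 bp beside 21413 bp for convergent gaps. A lone peak was found in 524 gaps, 2 peaks in 266, and 3 or more in 296, while 8 gaps held 10 or more. Gaps with a peak were longer than those without, with median lengths of 53669 and 10148 bp. Within a gap, neighbouring peaks were a median of 12258 bp apart. Of gaps with up to 5 kb of eligible sequence 11.99% held a peak, and of those with over 100 kb 89.5%, yet the density per Mb fell from 58.1 (46.4 to 71.9) to 19.5 (18.3 to 20.9). The convergent density was above the tandem and the divergent one at every size. At up to 5 kb of eligible sequence the others were 40.9 (33.9 to 48.8) and 37.1 per Mb (24.9 to 53.3). At 5 to 10 kb the densities were 43.2 (35.4 to 52.2), 34.7 and 39.8 per Mb, and at 10 to 20 kb 40.7 (35.4 to 46.6), 33.0 (30.3 to 36.0) and 32.3 (27.9 to 37.2), in both cases with overlapping intervals. At 20 to 50 kb the convergent density of 33.6 (30.7 to 36.6) lay above the tandem interval (27.1 to 30.2) and overlapped the divergent one (27.5 to 32.0). At 50 to 100 kb the 3 intervals overlapped, around 26.0, 24.4 and 23.7. Beyond 100 kb the convergent density lay above the divergent interval (15.9 to 17.5) and overlapped the tandem one (17.3 to 18.6).

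RAD21 peaks at the ends of the flanking genes were compared between gaps with and without a counted peak. A gap without one could still hold RAD21 peaks inside the 1 kb margin or in other annotated genes. In gaps with a peak, 33.3% of the 2172 flanking genes (31.3 to 35.3) had a RAD21 peak within 1 kb of the 5' end and 7.83% (6.77 to 9.03) within 1 kb of the 3' end. In the 1311 gaps without a counted peak, the shares were 32.0% (30.2 to 33.8) and 7.55% (6.60 to 8.63), with intervals that overlapped. Since gaps with a peak are longer, gaps of like eligible length were compared too. Only gaps with 10 to 100 kb of eligible sequence were compared in this way. At each of these lengths the shares were higher in gaps with a peak. At the 5' end they were 34.4% against 30.2% with 10 to 20 kb of eligible sequence, 32.03% against 29.9% with 20 to 50 kb, and 32.1% (28.0 to 36.6) against 21.97% (15.8 to 29.8) with 50 to 100 kb. At the 3' end they were 9.38% against 7.79%, 8.64% against 4.80% and 6.03% against 4.55%. The intervals overlapped in all 6 of these comparisons.

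The most crowded gap was C8orf90/TSNARE1, with 15 peaks in 113424 bp of eligible sequence. All of them were weak, with folds from 1.77 to 5.93, and none had a CTCF match even with 1 mismatch. The POTEM/POTEG gap on chromosome 14, between a pair of related ankyrin-repeat genes, held 12 peaks, of which the highest had folds of 13.7, 13.2 and 13.1. At 10 of these 12 summits the surrounding 101 bases occurred elsewhere in the reference as an exact copy, so their values are uncertain. No other named peak had such a copy. The search for copies was added after the values had been seen.

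Per length, the NFKB1/MANBA gap on chromosome 4 was the densest of those with at least 10 kb of eligible sequence and 3 peaks, with 4 peaks in a gap of 13467 bp. NFKB1 encodes a subunit of NF-kappaB and MANBA is beta-mannosidase. From left to right the folds were 17.7, 11.6, 7.29 and 2.75, and all but the last had a CTCF match with 1 mismatch, the first and next on the plus and the third on the minus strand. The gap between CCL17, a chemokine, and CIAPIN1, a protein of iron-sulphur cluster assembly, followed with 3 peaks in 12123 bp and folds of 17.6, 6.55 and 14.8. The middle one of these had the exact consensus and was the weakest of the 3. The matches in both gaps are given to show how closely spaced sites differ in letters and strand, with the 12 bases matched to the consensus in capitals.
CCL17/CIAPIN1, chr16:57419018-57419053, plus strand: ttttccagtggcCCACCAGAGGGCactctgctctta
CCL17/CIAPIN1, chr16:57422522-57422557, minus strand: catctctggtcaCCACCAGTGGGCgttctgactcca
NFKB1/MANBA, chr4:102620795-102620830, plus strand: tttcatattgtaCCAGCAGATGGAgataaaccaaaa
NFKB1/MANBA, chr4:102623842-102623877, plus strand: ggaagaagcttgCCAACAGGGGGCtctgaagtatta
NFKB1/MANBA, chr4:102625761-102625796, minus strand: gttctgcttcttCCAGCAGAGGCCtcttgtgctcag

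The shortest gap with a peak, HIP1R/VPS37B, was 2368 bp long, and its peak had a fold of 2.61 from 17 fragments. FGFR3/LETM1 was 2606 bp long, and there the peak between the growth factor receptor gene and the gene of an inner mitochondrial membrane protein had a fold of 34.9 from 265 fragments, without a CTCF match. SIPA1L3/DPF1 was 2636 bp long with a fold of 2.61. Among gaps without a counted peak, OR4A47/TRIM51G on chromosome 11 had the most eligible sequence, 325787 bp. TP53TG3D/TP53TG3 on chromosome 16 had 249326 bp and SSU72L6/GPR37 on chromosome 7 had 248635 bp. These are sums over the eligible parts of a gap, which need not be continuous. OR4A47 encodes an olfactory receptor, and TP53TG3D and TP53TG3 are copies of 1 gene family, in which mapping of reads to 1 place is uncertain.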

How the data were processed

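RAD21 ChIP-seq of wild-type untreated HCT116 cells was analysed from the authors' peak list, called on that library alone. According to the labels and the study's methods, paired reads were trimmed with Trimmomatic 0.39, aligned to the GRCh38 no-alt analysis set with Bowtie2 2.5.3, freed of duplicates with Picard and passed to MACS2 2.2.9.1 against Input with a q-value threshold of 0.05. The Input used for this library is not named in the sources used here. The deposited ratio is the fold enrichment at the summit over the local background, with 1 added to both. The authors' other columns give the −log10 of the p-value and of the q-value and a whole-number score, which was not used beyond inspection.

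The deposited fold and p-value gave back the numbers of ChIP and background fragments behind each peak, which were accepted when within 0.05 of a whole number, which held for all 2338 peaks. The list gives no library total, and the 2338 summits held 231218 fragments together. All 92 sequence names were in the GRCh38 reference, and 0 peaks passed a sequence end. Genes came from GENCODE version 44, with 59578 autosomal genes of which 19111 are protein-coding. Both boundaries of a gene were kept at the 1 kb margin. Eligible sequence meets every positional condition and leaves out assembly gaps. The CTCF consensus and 6 other motifs were searched for on both strands within 50 bases of each summit. Windows of the same size 5 kb away on both sides served as controls. Shares have Wilson intervals, densities and their ratios exact intervals, and medians order-statistic intervals, all at 95%. No p-value was computed, since 1 library allows no test between conditions, and the peaks of 1 library are not replicates.

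The alternatives were stricter q-values, whole peaks outside genes, other margins and limits on the 5' end, excluding protein-coding genes only, other motif settings, and only peaks whose background stayed below 2 times its floor. Named were the 12 strongest and 3 weakest peaks and the 3 strongest peaks with an AP-1 site. The gaps named were the 3 with most peaks, the 3 densest and the 3 shortest with a peak. The 3 with the most eligible sequence and no peak were named too. The result for 1 of these gaps is not reported here. The set of peaks, the gene lists and the motifs were chosen with earlier results of these data known. The scripts were tested on simulated data and used Python 3.11.15, pandas 2.3.3, scipy 1.17.1, pysam 0.24.0 and samtools 1.23.1.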

Additional observations from a re-analysis of the deposited data

How the results depend on the processing

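Of 76 values under the alternatives, 55 stayed within the counting error or within 1.5 times the original count, none reversed, and those that moved follow. With a q-value of at most 0.001 the density was 24.0 per Mb, the median fold 7.68 and the share with a fold of at least 10 39.7%. With at most 1e-05 these were 21.9 per Mb, 8.49 and 43.6%, and the share with the exact CTCF consensus was 15.6%. With the margin kept from 3' ends only, the ratio of convergent to divergent density was 1.10. A 2 kb margin gave 32.4% of peaks within 10 kb of a 3' end, and excluding protein-coding genes only gave 32.7%. With the 5' end under 100 kb away, the density was 30.4 per Mb, the ratio 1.34 and the share within 10 kb 45.2%. With no limit on the 5' end there were 3981 peaks at 17.9 per Mb with a median fold of 5.64, a share of 28.8% with a fold of at least 10, a CTCF share of 11%, a ratio of 1.12 and 22.1% within 10 kb. Allowing 1 mismatch gave a CTCF share of 43.5%. The number of peaks ranged from 1745 to 3981, and the ratio stayed above 1 in all 9 alternatives in which it was computed. The cause of these shifts was not tested. No paired analysis was possible because the peak list of 1 library was used, with no second group to pair it with. A peak with a fold near the lower limit rested on as few as 15 fragments, and a q-value of at most 0.05 was the authors' threshold, so weaker sites were not analysed here.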

Other observations

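Genes of colon identity and WNT signalling flanked convergent gaps of very different content. Of 21 such genes, 7 gaps were convergent, and 4 of these held 21 peaks in all. The gap between RGS9 and AXIN2, a negative regulator and target of WNT signalling, was the strongest. Its 7 peaks on chromosome 17 had folds of 45.7, 4.96, 50.0, 14.1, 8.50, 8.65 and 2.95 from left to right, and the one with 14.1 alone had a CTCF match, with 1 mismatch. The gap next to GATA6, an endodermal transcription factor gene, also held 7 peaks, but their folds ran only from 3.15 to 4.49. RAD23B/KLF4 held 3 peaks, with a fold of 12.3 at 9175 bp past RAD23B and of 3.152 and 3.498 close to KLF4, a factor of differentiated epithelium. KLF5/KLF12 held 4 peaks with folds up to 4.40. LGR5/ZFC3H1, PDX1/CDX2 and SOX9/SLC39A11, next to an intestinal stem cell receptor gene and to the intestinal factor genes CDX2 and SOX9, held no counted peak. These 3 had the least eligible sequence, 13194, 26603 and 50887 bp, in gaps of 23288, 34604 and 519532 bp. Most of the SOX9/SLC39A11 gap was thus not eligible, and RAD21 peaks there were not counted. The 4 gaps with peaks had from 100132 bp at RAD23B/KLF4 to 235154 bp at RGS9/AXIN2. With so few gaps, 4 of 7 cannot be told apart from the 45.3% of all convergent gaps.

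Of 15 genes of cohesin, its regulators and CTCF, 12 were on autosomes, and 3 of their gaps were convergent. UBE2K/PDS5A, next to a cohesin release and maintenance factor, held 2 peaks with folds of 4.51 and 2.84. NIPBL/CPLANE1, next to the cohesin loader, and GREB1L/ESCO1, next to a cohesin acetyltransferase, held no counted peak, the latter in 1171 bp of eligible sequence. These counts are too small to compare with the 45.3% of all gaps.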
